A study of Mus musculus with 16 samples.

Results

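The GATA transcription factors and their FOG (Friend of GATA) cofactors were followed in the adrenal glands of mice aged 4 weeks. The members were chosen by name: the 6 genes Gata1 to Gata6 and the 2 FOG genes Zfpm1 (FOG1) and Zfpm2 (FOG2), 8 of the 54838 genes in the deposited count table. Measured values also played a part, because the family was proposed with earlier results of these data known, in which Gata1 had one of the highest rises in females. That rise is therefore given as a description, with no test. The study compared 4 groups of 4 individual mice on a mixed genetic background: females and males, each as controls or with a gain of function of Rspo1 (Rspo1 GOF). R-spondin 1, the product of Rspo1, is secreted and amplifies WNT signals. The study's title puts the question of how expression depends on sex in the 2 genotypes. The promoter or cell type that drives the extra Rspo1, and any allele that the controls may carry, are not given in the sources used here.

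GATA factors are zinc finger proteins that bind short DNA elements with GATA at their core. Gata1, Gata2 and Gata3 are best known from blood cells, where Gata1 is needed for erythroid, mast, megakaryocyte and eosinophil lineages, and Gata2 and Gata3 also act in the sympathoadrenal lineage that forms the chromaffin cells of the adrenal medulla. Gata4, Gata5 and Gata6 are known from heart, gut, gonads and steroid-making tissue, and Gata6 is the main member of the adult mouse adrenal cortex. FOG proteins work through GATA factors: they attach to the amino-terminal zinc finger of a GATA protein and recruit corepressors, among them the NuRD complex and the CtBP proteins.

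Each library held between 31275146 and 43003968 counts, and expression levels are in CPM, a gene's counts per 1e6 counts of the library after TMM scaling. Rspo1 stood at 14.8 CPM ± 17.4 in female controls and 458 ± 80.2 in female GOF, and at 30.5 ± 12.6 in male controls and 805 ± 201 in male GOF (SD, n = 4), with no overlap. The 12 steroidogenic genes listed summed to at least 37323 CPM in every library, so the labelled tissue's defining genes were present. Set apart from the others were 3 control libraries. In male control 2 the 12 liver genes listed summed to 9828.1 CPM against at most 67.6 elsewhere, and 12 kidney tubule genes summed to 1339 CPM in female control 1 and 223 in female control 3 against at most 3.54 elsewhere. Log2 fold changes of the members and counts of list genes past the threshold are also given without these 3 libraries wherever their removal changed a call or moved the value or count by more than 1.5 times. In bulk tissue, fewer cells of a type and less RNA per cell cannot be told apart.

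The sequence just upstream of the transcription start is shown for the 3 members with the largest fold changes, since Gata1 moved one way and Gata2 and Gata3 the other. RefSeq, on the mouse build GRCm38.p6, gave such windows of 250 bases for 5 of the 8 members, Gata1, Gata2, Gata3, Gata5 and Zfpm1, and 6 windows in all because Gata2 had a pair. The windows printed lie at chrX:7967911-7968160 on the minus strand for Gata1, chr6:88193641-88193890 on the plus strand for Gata2, and chr2:9878601-9878850 on the minus strand for Gata3. They are written 5′ to 3′ and end just before the start site. Capitals mark the GC box GGGCGG, a binding element of SP and KLF proteins, and the CACCC box CCACCC, which KLF proteins bind, on either strand (a match on the other strand shows its reverse complement, and adjoining matches may overlap).
Gata1: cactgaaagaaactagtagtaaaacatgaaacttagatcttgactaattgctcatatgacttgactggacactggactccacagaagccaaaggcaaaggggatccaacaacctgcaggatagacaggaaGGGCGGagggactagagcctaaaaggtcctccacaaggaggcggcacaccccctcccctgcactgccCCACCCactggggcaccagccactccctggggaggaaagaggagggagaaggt
Gata2: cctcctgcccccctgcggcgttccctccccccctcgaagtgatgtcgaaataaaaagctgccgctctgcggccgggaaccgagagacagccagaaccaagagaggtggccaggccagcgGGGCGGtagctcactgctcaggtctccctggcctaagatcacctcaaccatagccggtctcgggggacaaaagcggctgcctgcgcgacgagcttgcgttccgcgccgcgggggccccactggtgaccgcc
Gata3: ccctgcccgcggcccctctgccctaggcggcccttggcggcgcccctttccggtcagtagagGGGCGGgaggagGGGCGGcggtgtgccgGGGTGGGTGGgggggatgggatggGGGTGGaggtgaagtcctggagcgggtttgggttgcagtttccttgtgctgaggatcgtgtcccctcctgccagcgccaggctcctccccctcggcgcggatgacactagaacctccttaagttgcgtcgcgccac

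A GC box was present in all 6 windows, against 32.7% of 32851 windows of the same length. The CACCC box was present in 4 of the 6 windows, 1 time in that of Gata1, 3 times in that of Gata3, 1 time in that of Gata5 and 2 times in that of Zfpm1, and in neither window of Gata2, against 28.1% of all windows with at least 1 match. The GATA box (the letters GATA with an A or T before them and an A or G after them, on either strand) matched in 0 of the 6 windows, and in 26.5% of all windows. The TCF/LEF core CTTTGA, the element through which WNT signalling acts, matched 1 time, in the Gata5 window, and 13.8% of all windows held it. The SF1 element AAGGTCA matched in 0 of the 6, and in 4.08% of all windows. Base content differed too: the printed windows of Gata1, Gata2 and Gata3 held 54.0%, 67.2% and 70.0% G and C, against a median of 52.4% over all windows. These matches describe letters in a short window only.

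**Figure D1:**
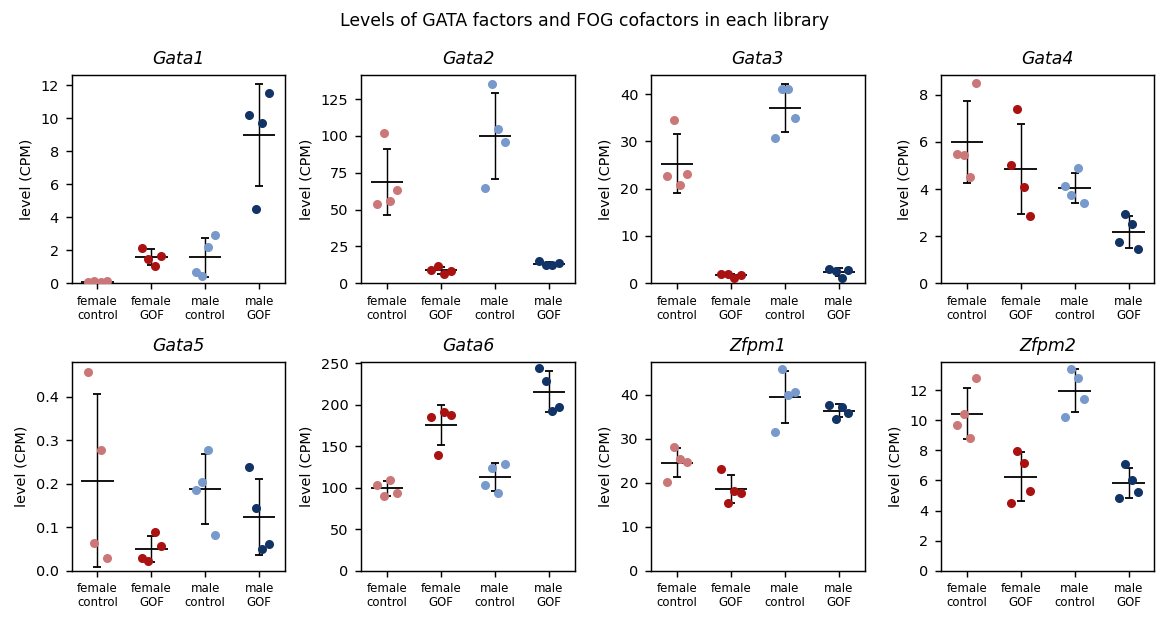
Level of each GATA factor and FOG cofactor in each of the 16 libraries, in CPM on linear axes that start at 0. Points are libraries of 4 mice per group, horizontal lines are group means and error bars are the SD. Gata2 and Gata3 are lower in all GOF than in all control libraries of either sex, Gata6 is higher, and Gata1 is highest in male GOF, between 4.52 and 11.5 CPM.

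Between control and GOF adrenals, Gata2, Gata3 and Zfpm2 fell and Gata6 rose in each sex, and Gata1 was higher. GOF was first compared with control in females. Gata1 is left out of counts that rest on female libraries, because its female rise took part in the choice of the family. Of the 6 other members that passed the filter on low counts, 5 were past the threshold of an adjusted p of 0.05, 1 higher and 4 lower, in the quasi-likelihood F-test of edgeR, adjusted by Benjamini-Hochberg over 18214 genes. Over all genes tested 39.6% were past it, 19.0% higher and 20.6% lower. In males 6 of the 7 tested members, Gata1 included, were past the threshold, 2 higher and 4 lower, against 36.9% of all genes tested, 15.2% higher and 21.8% lower. Over all genes this balance depended on scaling: in males 41.1% of the calls were higher with TMM factors, 51.2% with upper-quartile factors and 60.1% in limma on log2(FPKM + 1), and in females 48.0%, 42.7% and 58.1%. The median log2 fold change was -0.57 for the 6 in females and -0.90 for the 7 in males, beside 0.05 and 0.01 over all tested genes. Gata5 did not pass the filter. Gata1 reached its level of 0.292 CPM in 0 of 4 female controls and in 4 of 4 libraries of each other group, so both male groups reached it. These counts describe the members and support nothing further.

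Gata3 (ENSMUSG00000015619, chromosome 2, 9857078 to 9890034, minus strand, GRCm38) directs T cell and sympathoadrenal differentiation. In female controls its levels were 22.7, 34.4, 20.8 and 23.2 CPM, and in female GOF 1.90, 1.95, 1.11 and 1.72. In males the controls had 30.7, 41.1, 41.2 and 35.1 CPM and the GOF libraries 3.10, 2.63, 1.10 and 2.87. Every GOF library was lower than every control, and the lowest control still lay at 20.8 CPM against a highest GOF value of 3.10. The log2 fold change was -3.92 ± 0.293 in females (SE, edgeR adjusted p = 6.49e-07) and -3.93 ± 0.29 in males (edgeR adjusted p = 4.07e-07), 15.2-fold and 15.3-fold lower by the group means.

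Gata2 (ENSMUSG00000015053, chromosome 6, 88193891 to 88207032, plus strand) maintains blood stem cells and is also expressed in endothelium and sympathoadrenal cells. It stood at 53.9, 101.9, 55.7 and 63.1 CPM in female controls and 9.30, 11.7, 5.94 and 8.43 in female GOF. Male controls had 64.8, 135, 104.5 and 95.7 CPM, and male GOF 14.8, 12.1, 12.3 and 13.7. The groups did not overlap in either sex, and what remained in GOF was a larger part of the control level than for Gata3. Its log2 fold change was -2.95 ± 0.261 in females (edgeR adjusted p = 2.22e-06) and -2.92 ± 0.259 in males (edgeR adjusted p = 1.5e-06), 7.76-fold and 7.55-fold lower. Without the 3 control libraries these became -3.22 and -2.74, both still past the threshold.

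Chromaffin cell genes moved with both of them. All 12 of 12 chromaffin genes listed fell in each sex, against 20.6% of all genes tested in females and 21.8% in males. The median of the list was -3.78 on the log2 scale for females and -3.86 for males, between the values of Gata2 and Gata3. The list summed to 4784.5 to 10936.4 CPM in female controls and 198 to 774 in female GOF, and to 7650.7 to 11424.1 in male controls and 398 to 890 in male GOF. Among its members, Th, the first enzyme of catecholamine synthesis, fell by 3.74 ± 0.527 on the log2 scale in females (edgeR adjusted p = 9.35e-05). Pnmt, which makes adrenaline, fell by 4.93 ± 0.606 (edgeR adjusted p = 3.27e-05). Whether the medulla's share of the sampled tissue had a part in the falls of Gata2 and Gata3 was not tested. T cells and innate lymphoid cells are another source of Gata3 RNA. In males 4 of their 8 genes listed were higher (Cd4, Cd8a, Lck and Il7r) and 1, Il1rl1, was lower, while in females 1, Il7r, was higher. These counts were 3, 0 and 0 without the 3 control libraries. Cd3e, 1 of the 8, passed the filter through male GOF, and with all libraries the other 7 held the 4 higher and 1 lower in males. Over all genes tested 36.9% were past the threshold in males and 39.6% in females. Cd4, the helper T cell coreceptor, stood at 6.55, 9.72, 1.33 and 1.54 CPM in male GOF and at 0.959 ± 0.199 (SD) in male controls. The list summed to 18.95, 53.5, 8.01 and 10.1 CPM in male GOF, highest in male GOF 2, and without that library 2 of the 8 were higher and 0 lower. Leaving out male control 1, 3 or 4 left 1 higher, Cd4, and 0 lower. The female call of Il7r was lost without female control 3 or 4 or female GOF 2 or 3.

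**Figure D2:**
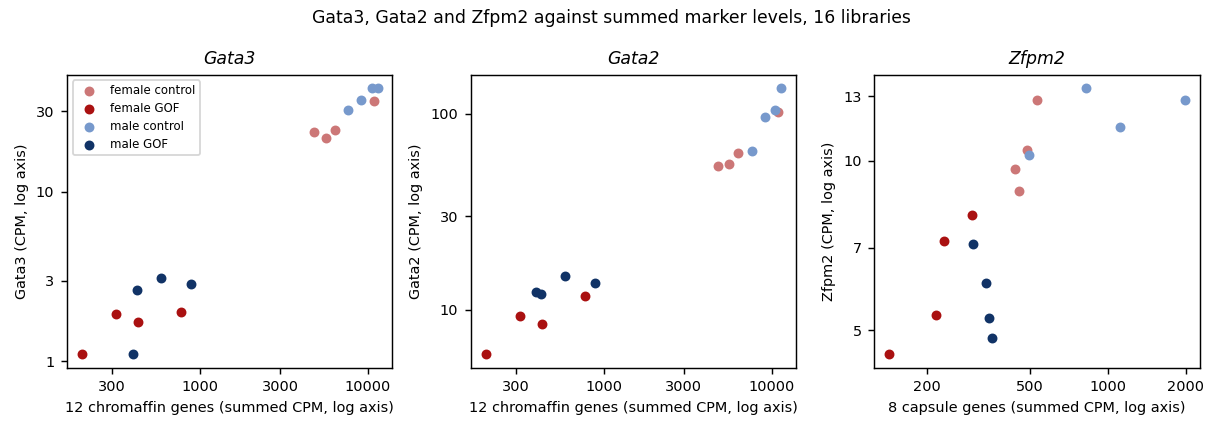
Gata3 and Gata2 against the summed level of 12 chromaffin genes, and Zfpm2 against 8 capsule genes, in CPM on log axes, with 1 point for each of the 16 libraries, coloured by group. For Gata2 and Gata3, control libraries lie at chromaffin sums of 4784.5 CPM and more and GOF libraries at 890 and less.

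After the group means were subtracted, Gata2 and Gata3 still varied together over the 16 libraries (Pearson r = 0.64 on log2 CPM), and each varied with the mean log2 CPM of the chromaffin list, with r = 0.86 for Gata2 and 0.68 for Gata3. With the mast cell list they had r = 0.68 and 0.67, and with the erythroid list 0.42 and 0.45. The chromaffin values were 0.86 and 0.65 and the mast cell values 0.67 and 0.63 without the 3 control libraries. These correlations are descriptions over libraries of 4 groups with shared scaling. The 3 genes most like Gata2 on the same measure were Cyb561 (r = 0.950), a cytochrome of chromaffin granules, Iqsec3 (0.932) and Astn1 (0.931), both known from neurons. For Gata3 they were Ccdc127 (0.864), Fam19a1 (0.856) and Unc80 (0.851). Of each trio 1 gene remained among the top 3 with Spearman's rho, and without the 3 control libraries 1 remained for Gata2 and 0 for Gata3. Beside Gata3, the opposite-strand gene 4930412O13Rik, which lies within its span and shares 0 exon bases with it, had 0.700 CPM in female controls and 0.0896 in female GOF, and 0.955 in male controls and 0.0677 in male GOF. It reached the filter in control libraries only, so these values are given with no test. Exons of 9230102O04Rik and Gm13256 overlap 1.94% and 3.90% of the exon bases of Gata3, and no library had more than 8 and 3 counts there.

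Gata6 (ENSMUSG00000005836, chromosome 18, 11052064 to 11085635, plus strand) was the member with the highest level per length in each group. It stood at 103.6, 90.3, 109.5 and 93.3 CPM in female controls and 185, 140.0, 192 and 188 in female GOF. In males the controls had 104, 124, 93.4 and 129 CPM and the GOF libraries 244, 228, 193 and 198. All GOF libraries were above all control libraries of both sexes. The rise was 1.78-fold in females (log2 fold change 0.83 ± 0.124, edgeR adjusted p = 0.000125) and 1.92-fold in males (0.94 ± 0.124, edgeR adjusted p = 3.83e-05). The antisense gene 1010001N08Rik shares 93 of the 6508 exon bases of Gata6, and whether the counting used strand is not given in the sources used here, so some reads there cannot be assigned to one strand. It had 9.16 CPM ± 1.19 in female controls and 18.9 ± 2.04 in female GOF, and 14.8 ± 1.86 in male controls and 42.1 ± 5.05 in male GOF. Its own rise was 1.05 ± 0.126 in females (edgeR adjusted p = 2.18e-05) and 1.51 ± 0.126 in males (edgeR adjusted p = 9.84e-07).

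Cortical genes were examined beside Gata6. Of the 12 steroidogenic genes listed, 2 rose and 2 fell in each sex, shares near the 39.6% and 36.9% of all genes tested. In males 2 were past the threshold without female control 3, male GOF 3 or male GOF 4 (2 higher and 0 lower) and without male control 2 (1 higher and 1 lower). The list's median was 0.04 on the log2 scale for females and -0.08 for males. Nr5a1, the steroidogenic master factor that partners GATA proteins, rose by 0.82 ± 0.223 in females (edgeR adjusted p = 0.00955) and 1.04 ± 0.224 in males (edgeR adjusted p = 0.00224). Hsd3b1, an enzyme of steroid synthesis, rose by 0.89 and 0.61, while Star, the cholesterol carrier of mitochondria, and Mrap, an accessory protein of the ACTH receptor, fell. Their log2 fold changes were -0.78 and -0.57 for Star and -1.43 and -0.70 for Mrap. Without the 3 control libraries 1 of the 12 rose and 1 fell in females, and 1 rose and 0 fell in males: the calls of Nr5a1 in females (edgeR adjusted p = 0.138), of Hsd3b1 in males (0.0978), of Star in both sexes (0.0664 and 0.072) and of Mrap in males (0.0623) were lost. The list's sum ranged from 43168 to 55083 CPM in female controls and from 48721 to 56455 in female GOF, and from 37323 to 59659 in male controls and from 39513 to 53218 in male GOF, so the groups overlapped. Within groups Gata6 had r = -0.14 with the steroidogenic list, and -0.10 without the 3 control libraries. The genes most like Gata6 within groups were Lysmd1 (r = 0.882), C1rl (0.859) and Miga1 (0.850), of which 2 remained with Spearman's rho and 1 without the 3 control libraries.

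Gata4 (ENSMUSG00000021944, chromosome 14, 63198922 to 63271692, minus strand) is a factor of the fetal adrenal and the gonads. In FPKM, fragments scaled to gene length and library total, it stood at 3.13 ± 0.971 in female controls, where Gata6 stood at 61.3 ± 5.49. In CPM, Gata4 had 5.50, 5.46, 4.53 and 8.51 CPM in female controls and 5.03, 7.40, 4.09 and 2.86 in female GOF. Male controls had 4.12, 3.75, 4.92 and 3.43 CPM and male GOF 1.75, 2.94, 2.50 and 1.45. The female groups overlapped, and the male groups did not. The log2 fold change was -0.31 ± 0.294 in females (edgeR adjusted p = 0.43), which did not pass and was -0.53 (edgeR adjusted p = 0.319) without the 3 control libraries, and -0.90 ± 0.3 in males (edgeR adjusted p = 0.0279). With 1 library left out the female value ran from -0.63 to -0.09, and did not pass in any of these fits. The male call was lost without male control 3 (edgeR adjusted p = 0.0752), without male GOF 1 (0.0652), without male GOF 4 (0.0785) and without the 3 control libraries (0.0523). It was lost as well in limma on log2(FPKM + 1) (-0.50, adjusted p = 0.0671) and in limma on log2(FPKM + 0.1) without a filter (-0.78, adjusted p = 0.0653).

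Genes of gonadal cells, for which Gata4 is known as a driver, were examined beside it. Of the 13 listed 10 passed the filter, of which 8 in the female and 6 in the male comparison would have passed without the group in which they were higher. Of these 2 of 8 fell in females (Amhr2 and Sox9) and 2 of 6 in males (Inhbb and Sox9) and 0 rose, with medians of -0.66 and -0.45. Over all genes tested 20.6% fell in females and 21.8% in males, and 19.0% and 15.2% rose. So few genes cannot be told apart from those shares. The sum of the 13 genes, most of it Inha RNA, had a median of 69.72 CPM in female controls and 104.5 in female GOF. In males the medians were 104.7 in controls and 81.89 in GOF, and the groups overlapped in each sex. Foxl2, a granulosa cell factor, was at 1.03 CPM in female controls and 0.0146 in female GOF, and reached the filter in female controls only. Amhr2, the receptor of anti-Müllerian hormone, had a log2 fold change of -1.19 in females, and its call was lost without the 3 control libraries (edgeR adjusted p = 0.128). Sox9, a Sertoli cell factor, had log2 fold changes of -1.33 ± 0.505 in females (edgeR adjusted p = 0.0479) and -1.41 ± 0.492 in males (edgeR adjusted p = 0.0351), both calls lost without the 3 control libraries (0.266 and 0.0858). These calls also rested on single libraries: leaving out any of female control 1, 3 or 4 or female GOF 1 or 2 ended the female calls of Amhr2 and Sox9, and leaving out male GOF 2, male GOF 4 or male control 4 ended the male calls of Inhbb and Sox9. The edgeR adjusted p where a call was lost was at most 0.133 in females and 0.0918 in males. The receptor gene Fshr had no count in any library. Within groups, the genes most like Gata4 were Nr5a1 (r = 0.849), Nr4a3 (0.819) and Tgs1 (0.811), of which 2 remained with Spearman's rho and 1 without the 3 control libraries.

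Gata5 (ENSMUSG00000015627, chromosome 2, 180325133 to 180334699, minus strand), known from heart and gut epithelium, did not pass the filter and was not tested. Its female control libraries held 17, 2, 9 and 1 counts, and female GOF 1 to 3, male controls 3 to 9 and male GOF 2 to 9. The highest count lay in female control 1, a library with kidney tubule transcripts, and female control 3, the other such library, shared its 9 counts with male control 3 and male GOF 1. The other female controls were under the floor of 3 counts. Without the 3 control libraries the female control mean was 0.0470 CPM in place of 0.207.

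**Figure D3:**
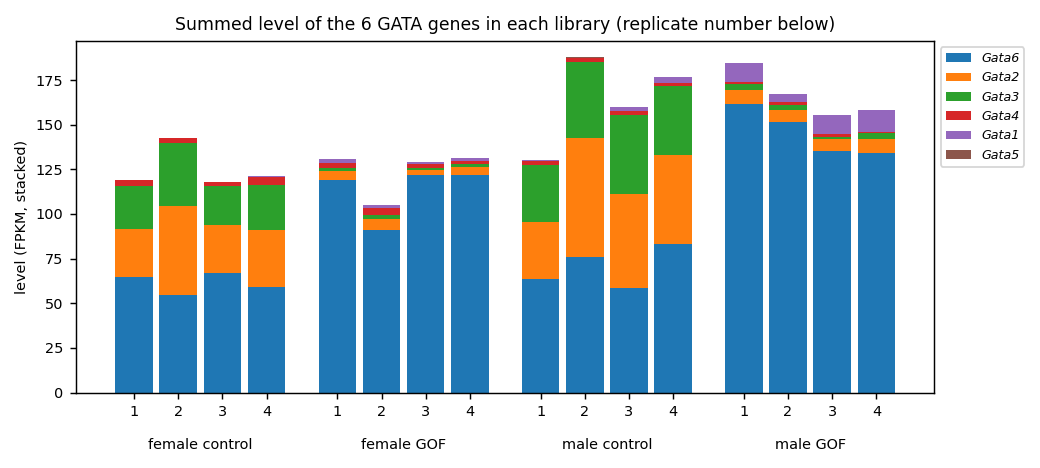
Summed level of the 6 GATA genes in each of the 16 libraries, in FPKM on a linear axis from 0, with 1 bar per library and 1 colour per gene. The bars of a sex are of like height in control and GOF, and Gata6 makes up 38.3% to 56.5% of the bar in controls of females and 86.8% to 94.2% in female GOF.

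The make-up of GATA RNA changed while its sum moved little. Per length, the 6 GATA genes summed to 125 FPKM ± 11.7 in female controls and 124 ± 12.8 in female GOF, and to 164 ± 24.9 in male controls and 166 ± 13.2 in male GOF (SD, n = 4). Gata6 made up 49.5% ± 8.14 of this sum in female controls and 91.2% ± 3.20 in female GOF, and 43.2% ± 5.74 in male controls and 87.5% ± 2.33 in male GOF. Gata2 and Gata3 went from 26.8% and 21.1% to 3.81% and 1.51% in females, while in males they went from 30.2% and 24.2% to 4.34% and 1.66%. Gata1 went from 0.0796% ± 0.0264 to 1.28% ± 0.370 in females, and in males from 0.944% ± 0.675 to 5.76% ± 2.14. Gene lengths behind these values are the authors', constant per gene and between 915 bases for Gata3 and 3846 for Zfpm2, and another choice of transcripts would move the shares.

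In female controls the order per length was Gata6 (61.3 FPKM), Gata2 (34.1), Gata3 (26.6), Zfpm1 (20.3), Gata4 (3.13), Zfpm2 (2.62), Gata1 (0.102) and Gata5 (0.0610). The library ranges of Gata2 and Gata3, Gata3 and Zfpm1, Gata4 and Zfpm2, and Gata1 and Gata5 overlapped. Male controls had the same first 4 places, whose neighbours all overlapped, at 70.3, 50.2, 39.4 and 33.0 FPKM. Female GOF put Zfpm1 (15.97 FPKM) next to Gata6 (113), followed by Gata2 (4.60), Gata4 (2.63), Gata3 (1.84), Zfpm2 (1.64) and Gata1 (1.58), whose neighbouring ranges overlapped from Gata2 to Gata1. In male GOF Gata1 took the third place, at 9.51 FPKM ± 3.31, after Gata6 (146) and Zfpm1 (32.9), and its range overlapped that of Gata2 (7.20).

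Gata1 (ENSMUSG00000031162, chromosome X, 7959260 to 7978071, minus strand), the erythroid master factor, spanned the widest range of the family relative to its lowest level. Female controls stood at 0.0808, 0.161, 0.0616 and 0.117 CPM, from 14 counts in all, and female GOF at 2.16, 1.44, 1.02 and 1.66. Male controls had 0.708, 0.468, 2.23 and 2.91 CPM, and male GOF 10.2, 4.52, 9.72 and 11.5. GOF and control libraries did not overlap in either sex, and female GOF lay within the range of male controls. The female GOF mean of 1.57 CPM was 14.9-fold the control mean of 0.105, a log2 fold change of 3.86 ± 0.597, which took part in the choice of the family and is given with no test. In males the log2 fold change was 2.51 ± 0.494 (edgeR adjusted p = 0.00113), a 5.70-fold rise from 1.58 CPM ± 1.18 to 8.99 ± 3.08. It was 2.20 without the 3 control libraries, still past the threshold. Hdac6, the gene next to Gata1 on the chromosome, rose by 0.51 ± 0.114 in females (edgeR adjusted p = 0.00276) and 0.51 ± 0.113 in males (edgeR adjusted p = 0.00276).

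Blood cell genes were examined as other carriers of Gata1 RNA. Of 14 erythroid genes listed 12 were tested, and apart from Hemgn, which passed the filter through female GOF, 4 of 11 were higher in GOF and 0 lower in females, and 0 were higher and 3 lower in males. Over all genes tested 39.6% were past the threshold in females, 19.0% higher, and 36.9% in males, 21.8% lower. Without female GOF 1 the female count, Hemgn included, went from 5 to 3. Hemgn, an erythroid nuclear protein, stood at 5.50, 1.95, 0.239 and 1.37 CPM in female GOF, and at 0.0374 ± 0.0555 (SD) in female controls. It reached the filter in 3 female GOF libraries and 1 other, and is given with no test. The erythroid factor Klf1 stood at 4.06, 1.01, 0.568 and 1.14 CPM in female GOF and at 0.585 to 0.678 in female controls (log2 fold change 1.42 ± 0.48, edgeR adjusted p = 0.029), and its call was lost without female GOF 1 (0.22) and without each female control (0.0544 to 0.0655). For both genes 1 library, female GOF 1, was the highest and female GOF 3 the lowest. In male GOF, where Gata1 was highest, Hemgn stood at 0.0703 CPM and Klf1 at 0.486, neither above its level in male controls of 0.105 and 0.523. The summed erythroid list, most of it globin RNA, ran from 341 to 1010.6 CPM in female controls and 505 to 638 in female GOF, and from 1098.5 to 2135.6 in male controls and 393 to 762 in male GOF.

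Most mast cell genes were lower in male GOF than in male controls. Of 11 listed 8 were tested: in males 0 were higher and 6 lower, with a median of -3.24, against 36.9% of all genes tested. Apart from Mrgprb1, which passed the filter through female GOF, 3 of 7 were higher in females (Kit, Mcpt4 and Tpsb2). Of these 7, 1 was lower (Hdc), and their median was 1.45, against 39.6% of all genes tested past the threshold. Mcpt4 and Tpsb2, a pair of mast cell proteases, were past the threshold in both sexes, with opposite signs, but both female calls were lost when any 1 of female control 1, 3 or 4 or female GOF 1, 2 or 4 was left out. That of Mcpt4 was lost without any 1 library other than female GOF 3. In males 6 were still lower without the 3 control libraries, while in females 1 was higher and 1 lower. For the interaction 6 of the 8 were past the threshold, against 4.21% of all genes tested, and 1 without the 3 control libraries. Since Mrgprb1 is among these 8 and passed the filter through female GOF, the interaction count is a description only. Their protease genes stood near 0 in male GOF, with Cpa3 at 0.367 CPM, Mcpt4 at 0.214 and Tpsab1 at 0.0428. Without Kit and Hdc, which other cells also express and which made up most of the sum, 9 mast cell genes summed to 0.751 to 2.66 CPM in male GOF and 11.99 to 14.4 in male controls, and to 3.05 to 25.6 in female GOF and 4.00 to 11.3 in female controls. That reduced list was drawn up after the values were seen. Of 8 megakaryocyte genes 4 were tested, and 0 were past the threshold in either sex, with a lowest edgeR adjusted p of 0.239 (Itga2b, males). The defining gene Gp9 stood at 0.110 CPM in male GOF. None of the 5 eosinophil genes passed the filter, and Epx, their peroxidase, had at most 3 counts in any library.

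**Figure D4:**
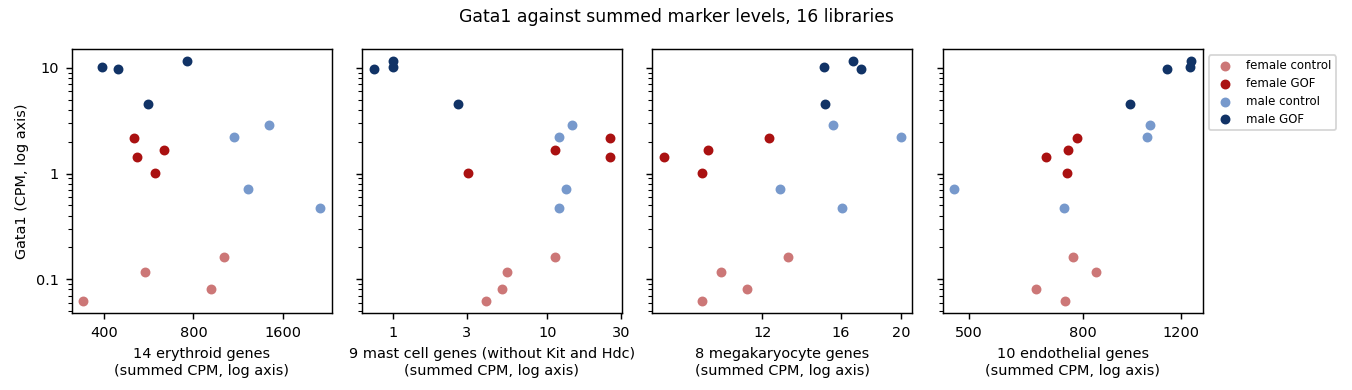
Gata1 against the summed level of 14 erythroid, 9 mast cell, 8 megakaryocyte and 10 endothelial genes, in CPM on log axes, with 1 point for each of the 16 libraries, coloured by group. Male GOF libraries, with Gata1 at 4.52 to 11.5 CPM, lie at mast cell sums of 0.751 to 2.66 CPM and endothelial sums of 970 to 1249.7 CPM.

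Endothelial genes were examined next. Of 10 listed 0 were past the threshold in females (the lowest edgeR adjusted p was 0.0923, for Plvap, and the median log2 fold change was -0.16), and 3 were higher in males (Emcn, Egfl7 and Plvap), with a median of 0.46, fewer than the 36.9% of all genes tested. Without the 3 control libraries 1, Plvap, was higher in males, and with 1 library left out 1 to 5 were. Plvap, of the diaphragms of fenestrated capillaries, rose by 1.18 ± 0.231 in males (edgeR adjusted p = 0.00109), from 114 to 258 CPM. The list summed to 660 to 846 CPM in female controls and 688 to 783 in female GOF, to 472, 741, 1042.4 and 1055.6 in the male controls and to 970 to 1249.7 in male GOF, so that the male groups overlapped. Within male controls, the pair of libraries with the lowest sums were also the pair with the lowest Gata1. After group means were subtracted, Gata1 had r = 0.75 with the endothelial list over 16 libraries, 0.64 with the NuRD and CtBP list, 0.37 with the megakaryocyte, 0.23 with the erythroid and 0.16 with the mast cell list, and -0.51 with the steroidogenic and -0.77 with the liver list. Over the 13 libraries left without the 3 control libraries these were 0.88, 0.48, 0.42, 0.54, 0.14, -0.81 and -0.58. The genes most like it were Neu3 (0.863), Adgrf5 (0.861), a receptor of endothelium and epithelium, and Alox12 (0.856), of which 1 remained with Spearman's rho and 0 without the 3 control libraries. The part of blood cells or endothelium in the Gata1 values was not tested.

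Genes of the complexes in which GATA1 and GATA2 act, such as Tal1, Lmo2 and Ldb1, were taken from a list of 12, of which 11 were tested. In females 4 were higher and 1 lower in GOF, and in males 4 were higher and 0 lower, shares near the 39.6% and 36.9% of all genes tested. Removing the 3 control libraries left 2 and 1 higher and 0 lower, and with 1 library left out 3 to 6 were past the threshold in females and 1 to 4 in males. Ldb1, the bridging subunit, rose in both sexes, by 0.39 ± 0.104 (edgeR adjusted p = 0.00852) and 0.29 ± 0.103 (edgeR adjusted p = 0.0371), calls lost without the 3 control libraries (0.0506 and 0.103), and so did Tcf3, an E protein, by 0.40 ± 0.0824 (edgeR adjusted p = 0.00162) and 0.37 ± 0.0824 (edgeR adjusted p = 0.00293). Lmo2 fell in females (-0.46 ± 0.169, edgeR adjusted p = 0.0425, and 0.206 without the 3 control libraries) and had a log2 fold change of 0.11 in males (edgeR adjusted p = 0.627). Cbfa2t3 rose in females. So did Klf1, whose call was lost without the 3 control libraries (edgeR adjusted p = 0.139), without female GOF 1 (0.22) and without any 1 of the female controls (0.0544 to 0.0655). Lyl1 and the myeloid factor Spi1 rose in males, and both calls were lost without the 3 control libraries (0.142 and 0.121). Tal1 did not pass in either sex, at 0.24 and 0.59.

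Zfpm2 (ENSMUSG00000022306, chromosome 15, 40655035 to 41104592, plus strand), the FOG gene of heart and gonads and a partner of Gata4, fell in both sexes. It stood at 9.68, 10.5, 8.84 and 12.8 CPM in female controls and 4.53, 7.99, 7.20 and 5.32 in female GOF. Male controls had 10.3, 13.5, 12.8 and 11.5 CPM and male GOF 4.85, 7.12, 6.06 and 5.26. No GOF library reached the lowest control of 8.84 CPM. The log2 fold change was -0.74 ± 0.19 in females (edgeR adjusted p = 0.00682) and -1.04 ± 0.191 in males (edgeR adjusted p = 0.000638). Genes of other cell types fell beside it. Of 8 adrenal capsule genes listed 7 fell in females and 8 in males, with medians of -1.60 and -1.69, and of 6 adipocyte genes 5 fell in females and 6 in males, with medians of -2.16 and -3.58. Of all genes tested 20.6% fell in females and 21.8% in males. Among the capsule genes Gli1, the hedgehog-responsive factor of capsule cells, had log2 fold changes of -2.02 and -1.37. Rspo3, the R-spondin made in the capsule, had -3.34 ± 0.213 in females (edgeR adjusted p = 1.73e-07) and -3.33 ± 0.21 in males (edgeR adjusted p = 1.98e-07). The capsule list summed to 437 to 531 CPM in female controls and 143 to 297 in female GOF, and to 495 to 1984.8 in male controls and 302 to 358 in male GOF. The part of capsule or fat cells in the fall of Zfpm2 was not tested. Within groups Zfpm2 had r = 0.64 with Gata4, 0.48 with the capsule list, and 0.43 with both the adipocyte and the smooth muscle list, and without the 3 control libraries the lists gave 0.64, 0.52 and 0.60. The genes most like it were Foxred1 (0.882), Wnt11 (0.863) and Cidea (0.832), of which 2 remained with Spearman's rho and 1, Cidea, a protein of fat cells, without the 3 control libraries.

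Zfpm1 (ENSMUSG00000049577, chromosome 8, 122282141 to 122337251, plus strand), the FOG gene of blood cells and a partner of Gata1, moved less. It stood at 20.1, 28.2, 25.3 and 24.6 CPM in female controls and 23.1, 15.4, 18.1 and 17.6 in female GOF, which overlap. Male controls had 31.6, 46.0, 39.9 and 40.6 CPM and male GOF 37.8, 34.5, 37.3 and 35.9, within the range of the controls. The log2 fold change in females was -0.41 ± 0.133 (edgeR adjusted p = 0.0252), and the call was lost without female control 2 (0.083), female control 3 (0.0561) or female GOF 2 (0.0538). It was lost as well with the range of animal numbers in the labels as a covariate (-0.39, edgeR adjusted p = 0.0845), in limma on log2(FPKM + 1) (adjusted p = 0.0536) and in limma on log2(FPKM + 0.1) without a filter (0.0806). In males it was -0.12 ± 0.132 (edgeR adjusted p = 0.509), -0.04 without the 3 control libraries and 0.01 in limma on log2 FPKM. The 3 genes most like Zfpm1 within groups were Oit3 (r = 0.881), Plscr4 (0.810) and Lrrc27 (0.806), of which 1 remained with Spearman's rho and 0 without the 3 control libraries.

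Next were genes of the corepressors that FOG proteins recruit. All 14 NuRD and CtBP genes listed were tested: 8 rose and 0 fell in females, with a median log2 fold change of 0.27, and 2 rose and 1 fell in males, with a median of 0.14, against 39.6% and 36.9% of all genes tested. The female count was 5 without female GOF 2, and 4 rose in males without male control 4. Hdac1, the histone deacetylase, rose by 0.52 ± 0.0966 (edgeR adjusted p = 0.00071) and 0.50 ± 0.0965 (edgeR adjusted p = 0.000969), and Mta2 by 0.31 ± 0.0607 (edgeR adjusted p = 0.00109) and 0.24 ± 0.0607 (edgeR adjusted p = 0.00634, and 0.0604 without the 3 control libraries). Mta3 fell in males by 0.54 ± 0.113 (edgeR adjusted p = 0.00174). Other genes with a single GATA-type zinc finger were listed as well, Trps1, Gatad1, Gatad2a and Gatad2b, the last a pair also counted with NuRD. In females 2 of these 4 rose, the Gatad2 pair (1, Gatad2b, without the 3 control libraries or without any 1 of female control 1 and female GOF 2, 3 and 4), and in males 1, Trps1, a repressor that binds GATA elements, by 0.38 ± 0.0794 (edgeR adjusted p = 0.00168).

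**Figure D5:**
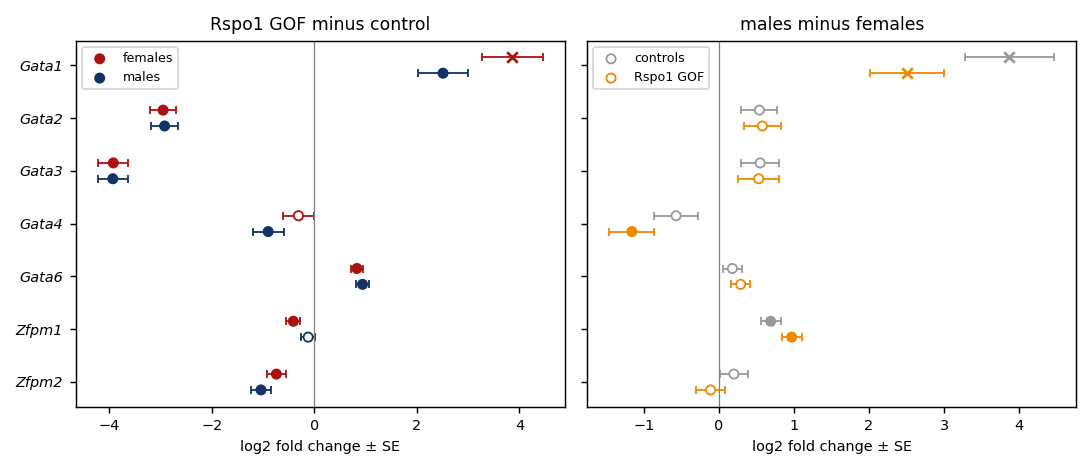
Log2 fold changes of the 7 tested members with an SE derived from edgeR's fold change and F statistic, on linear axes: GOF minus control in females and males on the left, males minus females in controls and GOF on the right. Filled points are past an adjusted p of 0.05 and open points are not, and crosses mark Gata1 where female libraries take part, with no test. Gata2 and Gata3 lie at -2.92 and lower in both sexes, and Gata1 and Zfpm1 are higher in males in both genotypes.

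Sex was compared within each genotype. In controls, 1 of the 6 members tested beside Gata1 was higher in males and 0 lower, against 23.4% of all genes tested past the threshold in either direction, 13.5% higher and 9.89% lower. Of those calls over all genes 57.8% were higher with all libraries and TMM factors, 49.9% with upper-quartile factors, 46.6% with only the groups compared, 47.6% without a filter, 48.1% with the animal number range as a covariate and 44.7% without the 3 control libraries. The member higher in males was Zfpm1, with 0.69 ± 0.133 (edgeR adjusted p = 0.00206) and no overlap between the sexes. Without the 3 control libraries its difference was 0.50 ± 0.159 (edgeR adjusted p = 0.0733), no longer past the threshold. Gata1, given with no test because its low female control values took part in the choice of the family, had a log2 difference of 3.87 ± 0.597, or 3.78 without those libraries, and every male control library was above every female one. Gata2 and Gata3 had differences of 0.54 ± 0.24 (edgeR adjusted p = 0.113) and 0.55 ± 0.255 (edgeR adjusted p = 0.13), which became 0.10 and 0.30 without those libraries. Gata2 was past the threshold without female control 2 (0.80, edgeR adjusted p = 0.0254) and without male control 1 (0.70, 0.0375), and Gata3 without male GOF 3 (0.54, 0.0465). Zfpm2 had 0.20, which became -0.02 without the 3. The chromaffin list had a median of 0.62, with 0 of 12 genes past the threshold. Its median was 0.13 without the 3 control libraries, with 0 past the threshold, and 0.92 without female control 2, with 2 past it. Trps1 was lower in males (-0.61 ± 0.0795, edgeR adjusted p = 9.13e-05).

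In GOF, 1 of the 6 members tested beside Gata1 was higher in males and 1 was lower, against 29.6% of all genes tested past the threshold, 13.3% higher and 16.3% lower. Of those calls over all genes 44.9% were higher with TMM factors and 55.2% with upper-quartile factors. Gata1, again with no test, had a log2 difference of 2.51 ± 0.494, with the lowest male library at 4.52 CPM and the highest female one at 2.16. Zfpm1 was higher by 0.97 ± 0.134 (edgeR adjusted p = 0.000108), at 36.4 CPM ± 1.45 in males and 18.5 ± 3.24 in females, with no overlap. Gata4 was lower in males by 1.16 ± 0.3 (edgeR adjusted p = 0.00899), although the ranges overlapped, and the log2 fold change was -1.16. Gata6 was at 0.29 ± 0.123 (edgeR adjusted p = 0.087), and did not pass, though no male library was below a female one. It passed with upper-quartile factors (0.35, edgeR adjusted p = 0.0351), with at least 10 counts in every library (0.33, 0.0387), and in limma on log2(FPKM + 1) (0.36, 0.0383) and log2(FPKM + 0.1) (0.37, 0.0368). Gata2 and Gata3 did not pass either, except Gata2 without female GOF 2 (0.76, edgeR adjusted p = 0.0467) and Gata3 without male GOF 3 (0.79, 0.0143). Endothelial genes also differed: 9 of 10 were higher in GOF males than in GOF females (6 without the 3 control libraries, and 5 to 9 with 1 library left out), with a median of 0.65, as were 6 of the 11 tested GATA partner genes, among them Lyl1 (1.18 ± 0.193, edgeR adjusted p = 0.000415), and 1, Klf1, was lower. Without female GOF 4 the partner genes that were higher numbered 3. Apart from Mrgprb1 and Hemgn, which passed the filter through female GOF, 6 of 7 mast cell and 5 of 11 erythroid genes were lower in GOF males and 0 higher. Without female GOF 1 the erythroid count, Hemgn included, went from 6 to 2.

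The sexes were spread unevenly over the ranges of animal numbers in the labels, which fall into 4 runs. What the ranges stand for is not given. With the range as a covariate, the sex differences in GOF were -1.09 ± 0.393 for Gata4 (edgeR adjusted p = 0.12), no longer past the threshold, and 0.91 ± 0.211 for Zfpm1 (edgeR adjusted p = 0.024). In controls that of Zfpm1 was 0.65 ± 0.212 (edgeR adjusted p = 0.0874), no longer past it either. The differences of Gata1 were 1.85 ± 0.7 in GOF and 3.22 ± 0.79 in controls. Within the lowest run of numbers, Gata1 stood at 2.16 CPM in the 1 female GOF library and at 10.2 and 4.52 in the 2 male ones, and Zfpm1 at 23.1 against 37.8 and 34.5.

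Whether the response to GOF differed between the sexes was tested as an interaction. Of the 6 members tested beside Gata1 0 were past the threshold, against 4.21% of all genes tested (1.59% higher and 2.61% lower). Of the calls over all genes 37.9% were higher with TMM factors, 48.5% with RLE and 62.6% with upper-quartile factors. Of these 6, 0 had an unadjusted p under 0.05 in edgeR or an adjusted p under it in DESeq2. For Gata4 the difference, males minus females, was -0.60 ± 0.419 (edgeR adjusted p = 0.444), and for Gata1 it was -1.36 ± 0.743, with no test. The differences of Gata2, Gata3 and Gata6 were 0.04 ± 0.343, -0.02 ± 0.398 and 0.11 ± 0.174, and those of Zfpm1 and Zfpm2 were 0.29 ± 0.188 and -0.30 ± 0.268. These 5 differences were 0.48, 0.22, 0.04, 0.47 and -0.09 without the 3 control libraries. The Gata1 difference changes sign with the scale: in limma on log2(FPKM + 1) it was 0.88, since female controls lie near 0 there. These values do not show that the sexes respond alike.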

How the data were processed

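Adrenal RNA of 16 mice was sequenced as paired 150 bp reads from NEBNext Ultra libraries, per the labels' protocols. Per the submitters' processing notes, the tools included Bowtie2 2.2.3, TopHat2 2.0.12, HTSeq 0.6.1 and DESeq 1.18.0. The genome build and the strand setting are not given in the sources used here. The authors deposited raw counts per Ensembl gene, without normalization, and FPKM, fragments scaled to gene length and library total. Symbols and coordinates come from GENCODE M21 on GRCm38, which held 54809 of 54838 identifiers.

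Groups came from the sample labels, with individual mice as replicates. Counts passing filterByExpr (18214 genes) entered edgeR 4.0.16 (R 4.3.3), with TMM factors, a quasi-likelihood fit with the robust option, 1 mean per group over 16 libraries, 5 contrasts (GOF against control per sex, males against females per genotype, and the interaction), Benjamini-Hochberg adjustment over all tested genes and a threshold of 0.05. The script was tested on simulated data. For each gene the p-values rest on 1 estimate of spread shared by the 4 groups, with mice as replicates. That estimate is drawn toward those of other genes. The SE of an edgeR log2 fold change is its absolute value over the square root of the F statistic, an approximation. Levels between genes were compared in FPKM only. Correlations used log2 CPM (prior count 2) minus group means, and the 3 most similar tested genes with a mean of at least 1 CPM and no clone name were named for each member. The members, the 18 lists of 171 different genes and the tests were chosen with earlier results of these data known, as was the trio of control libraries with liver or kidney transcripts. The text names all 8 members, genes of the lists and the most similar genes. Some genes of the lists are counted but not reported here by name.

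Alternatives were RLE or upper-quartile factors, DESeq2 1.42.0, a filter of 10 counts in every library or none, fits to the compared groups alone, limma 3.58.1 on log2 FPKM (pseudocount 1 or 0.1, and a minimum mean of 0.1 FPKM or none), the animal number range as a covariate, and fits without each library or without the 3 control libraries. The fits without libraries were also applied to the gene lists, an addition made after the data were seen. Tables and plots used Python 3.11.15 with pandas 2.3.3, numpy 2.4.6 and matplotlib 3.10.9.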

Additional observations from a re-analysis of the deposited data

Results flagged for a closer look

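Among 32 groups of 4 libraries, 8 members in 4 groups, 1 library stood far from the others of its group. Gata6 in female GOF 2 was at 140.0 CPM, and the nearest other female GOF library was at 185 CPM, a gap of 0.864 of the range of the group. Chance alone gives such a gap in about 1 of 20 groups. Of the female GOF libraries, the same one also had the highest summed chromaffin level, 774 CPM, and the highest Gata2, 11.7 CPM, and the part of these in the Gata6 value was not tested. Without that library the rise of Gata6 in females was 0.88 on the log2 scale (edgeR adjusted p = 7.36e-05), against 0.83 with it.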

How the results depend on the processing

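Gata1 is left out of these counts wherever female libraries take part. Over 830 recomputed fold changes of the members, 780 kept their direction and their side of the threshold, 15 lost the call, 9 gained one and 26 changed sign. No paired analysis was possible because the labels give each mouse its own animal number and no replicate number shared between groups. The members past the threshold numbered 4 to 5 for GOF in females and 5 to 6 in males under every alternative run, and 0 for the interaction. Males against females in controls gave 0 in place of 1 with the covariate and without the 3 control libraries, and males against females in GOF gave 1 in place of 2 with the covariate. Leaving out 1 library gave 1 to 2 and 2 to 3. For sex, the covariate cannot be told apart from the groups outside the lowest run of numbers, the only run with both sexes. Calls over all genes depended more on the setting: for sex in controls 4267 became 1311 with the covariate, 1648 without the 3 control libraries and 2650 without female control 3, for sex in GOF 5394 became 1336 with the covariate, for GOF in females 7217 became 4554 without the 3, and for the interaction 766 became 1466 in DESeq2, 408 without a filter, 464 in limma without one, 442 with the covariate and 175 without the 3 control libraries, with 377 to 953 when 1 library was left out.

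Signs changed only where differences were small or near a pseudocount. Zfpm1 in males was 0.01 in each of the 3 fits to FPKM. Zfpm2 between the sexes was -0.02 in controls without the 3 control libraries, and in GOF 0.17 with the covariate and -0.24 to 0.05 with 1 library left out. The interaction of Gata1 was 0.88 in limma on log2(FPKM + 1). That of Gata3 was 0.02 with RLE factors and in DESeq2, 0.08 with upper-quartile factors, 0.04 without a filter, 0.06 with at least 10 counts or the covariate, 0.22 without the 3 control libraries and -0.20 to 0.25 with 1 library left out, and that of Gata2 was -0.22 to 0.22 with 1 left out. The cause was not tested. On log2(FPKM + 0.1) the median of all genes shifted to 0.10, 0.13 and 0.10 for GOF in females, GOF in males and sex in GOF. The same scale with a pseudocount of 1 gave Gata1 a rise of 1.21 in females, in place of 3.86, since 14 counts lie behind its female control level. Depth limits Gata5, with at most 17 counts in a library, and Gata1 in female controls.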

Other observations

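Other tissue genes that could bear on the family were listed too. Over all genes tested, 20.6% in females and 21.8% in males were past the threshold and lower in GOF, and 19.0% and 15.2% were higher. Of 5 smooth muscle genes listed 1 fell in GOF in females and 4 in males (2 in each sex without male control 3), with median log2 fold changes of -0.71 and -0.92. Macrophage genes summed to 1736.3 CPM in male GOF 1 and to 581.7 to 697.7 in the other male GOF libraries. Past the threshold and higher in GOF were 1 of 8 in females and 5 of 8 in males, but 5 and 0 without male GOF 1 and 0 in males without male control 2, and with 1 library left out the counts ran from 0 to 5 in females and from 0 to 6 in males. In each genotype 5 of 8 were higher in males than in females. Without the 3 control libraries 0 macrophage genes were higher in GOF in females and 2 in males, and 0 were higher in control males than in control females. The liver and kidney lists were called with the 3 control libraries in the fit and not without them, when 0 were past the threshold in either GOF comparison: 12 of 12 liver genes were lower in GOF in males (5 without male GOF 1, 2 without male GOF 2 or male GOF 4, and 0 without male control 2) and 0 of 12 in females. Of 12 kidney tubule genes 3 were tested. Slc22a12 passed the filter through the group in which it was higher. Of the 2 others, 2 were lower in GOF in females and 0 in males. More kidney tubule genes passed the filter in most fits with 1 library left out. Slc34a1, Kap, Aqp2 and Miox, for example, reached its level in 2 female controls and 1 male control only. Calls of such genes in females follow from the filter and are not given.

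Gfi1b, a target and partner of GATA1 in red cell precursors, did not pass the filter, and stood at 1.52, 0.458, 0.0299 and 0.0572 CPM in female GOF, against means of 0.0520 in female controls, 0.0523 in male controls and 0.0132 in male GOF. Rhag and Kel, a pair of red cell membrane genes that also did not pass, were at 0.0779 CPM or less by the means of the other groups. In female GOF Rhag stood at 4.56, 1.05, 0.149 and 0.486 CPM and Kel at 2.57, 1.15, 0.149 and 0.286, and for all 3 genes female GOF 1 was the highest library. Among the members over all 16 libraries, with group differences left in, Gata2 and Gata3 had r = 0.98 and Gata6 had r = -0.86 with Gata3, values that follow the groups.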
